A study of Homo sapiens with 8 samples.

Results

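KASUMI-1 is a human acute myeloid leukemia line that carries a translocation fusing RUNX1 to RUNX1T1, and the series title and design text call it sensitive to inhibition of the histone demethylase LSD1 (gene KDM1A). The late response of this line was read from 1 pair of RNA sequencing libraries, 2 of the 8 in the series. One came from cells kept for 72 h with the LSD1 inhibitor DDP38003 at 0.5 µM, written LSD1i below, and the other from cells kept for 72 h with vehicle. The other 6 libraries were a KASUMI-1 pair at 6 h and pairs of THP-1, a monocytic leukemia line called resistant, at 24 h and at 72 h, with the same dose in each LSD1i library. The pair was chosen by line and time and not by any measured value. No label says that libraries came from separate cultures, each side held 1 library, and so no p-value was computed and intervals cover counting error only.

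LSD1 removes methyl groups from lysine 4 of histone H3. In myeloid cells it works with RCOR proteins and histone deacetylases in a repressor complex that the zinc finger proteins GFI1 and GFI1B bring to enhancers and promoters bound by factors such as PU.1, C/EBP and RUNX proteins. Inhibitors of LSD1 are known to bring up monocyte and granulocyte genes in leukemia cells. The fusion of KASUMI-1 cells keeps the DNA-binding part of RUNX1 and recruits corepressors through the RUNX1T1 part.

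The LSD1i library held 45970766 counted reads and the vehicle library 23722972, the fewest of the 8. Levels are given as read counts scaled to library size (CPM), with TMM factors over the 8 libraries, and each ratio is LSD1i over vehicle with a 95% counting interval. Of 33045 gene names 11051 averaged at least 2 CPM over the pair and were compared. A gene is called higher or lower below when its ratio was at least 2-fold from 1 and its interval excluded 1. Several markers of the line were present: KIT stood at 582 CPM with LSD1i and 705 CPM with vehicle. CD34 stood at 992 CPM with LSD1i and 636 CPM with vehicle, and MPO at 7976 CPM with LSD1i and 9139 CPM with vehicle. PRAME, also listed for KASUMI-1, stood at 4.29 CPM with LSD1i and 5.36 CPM with vehicle, against 57.1 CPM in THP-1 vehicle at 72 h. Of 6 THP-1 markers 2 reached 2 CPM. They were HOXA10 at 32.8 CPM with LSD1i and 27.4 CPM with vehicle, and HOXA5 at 8.04 CPM with LSD1i and 7.26 CPM with vehicle. The homeobox gene MEIS1, another THP-1 marker, stood at 0.0726 CPM with LSD1i and 0.0886 CPM with vehicle. POU4F1, a transcription factor typical of leukemias with this fusion, stood at 16.4 CPM with LSD1i and 11.6 CPM with vehicle. RUNX1T1 stood at 105 CPM with LSD1i and 81.9 CPM with vehicle, and gene counts do not separate RUNX1 or RUNX1T1 from the fusion transcript. Of the markers of other cell types, 2 of 20 for T and NK cells, 7 of 19 for B and plasma cells, 4 of 27 for red cells and megakaryocytes and 1 of 14 for fibroblasts and epithelia reached 2 CPM. Their summed levels were 23.5 CPM with LSD1i and 25.6 CPM with vehicle for T and NK cells, and 75.7 CPM with LSD1i and 171 CPM with vehicle for B and plasma cells, most of it IGLL1 and CD79B. They were 26.0 CPM with LSD1i and 24.2 CPM with vehicle for red cells and megakaryocytes, and 166 CPM with LSD1i and 128 CPM with vehicle for fibroblasts and epithelia, nearly all of it EPCAM. Some lineage markers were thus expressed, CD8A at 12.5 CPM with LSD1i and 13.3 CPM with vehicle, CD247 at 2.76 CPM with LSD1i and 7.13 CPM with vehicle, and the B cell factor PAX5 at 2.15 CPM with LSD1i and 3.37 CPM with vehicle. Other defining markers, MS4A1 of B cells and LCK of T cells, had 0 reads on both sides. The part of other cell types in the results was not tested.

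With LSD1i 376 genes were higher, 3.4% of those compared, and 117 were lower, 1.06%. Higher genes thus made up 76.3% of the genes 2-fold apart, a share that was 62.5% when libraries were scaled by total reads alone and 86.8% once the trend with GC content described below was removed. The higher genes were of low level in the vehicle library: their median was 13.1 CPM with LSD1i and 4.38 CPM with vehicle, against medians of 30.6 CPM with LSD1i and 29.4 CPM with vehicle over all genes compared. Of these genes 28 were below 1 CPM in the vehicle library. The lower genes had a median of 8.04 CPM with LSD1i and 17.7 CPM with vehicle. The spread was uneven between directions, with 68 genes at least 4-fold higher and 4 at least 4-fold lower. In all, 13 genes were at least 16-fold higher and 0 at least 16-fold lower. The genes just past the 2-fold line were ZNF30 (ratio 2.01) and ZNF137P (ratio 1.999, just short of it) on the higher side, and SLC25A10 (ratio 0.499) and NDUFB7 (ratio 0.501, just short of it) on the lower side.

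**Figure D1:**
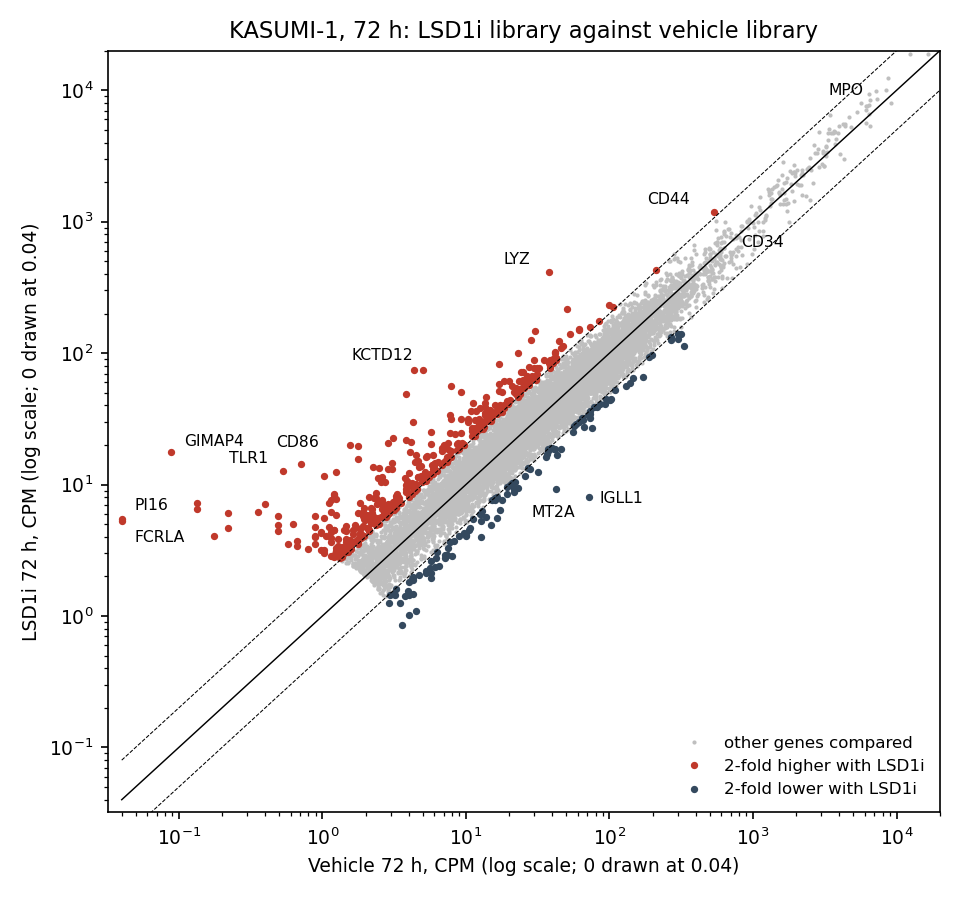
Level of each gene compared in the LSD1i 72 h library (vertical axis, CPM) and the vehicle 72 h library (horizontal axis, CPM), both on log scales, with the line of equality and the 2-fold lines dashed. The 376 higher genes (red) reach far to the left, to GIMAP4, PI16 and FCRLA, while the 117 lower genes (blue) mostly lie near the 2-fold line, with IGLL1 and MT2A among the 4 that were at least 4-fold lower.

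The highest ratios belonged to genes that the vehicle library hardly held. GIMAP4, a GTPase of the immunity-associated family of lymphoid cells, had 733 reads (17.7 CPM) with LSD1i and 2 reads (0.0886 CPM) with vehicle, a ratio of 200.4 (interval 55.3 to 1658). LY96, the partner of the Toll-like receptor TLR4, had 268 reads with LSD1i and 3 with vehicle, a ratio of 48.8 (16.5 to 238). The bound for a gene with 0 reads on one side sets that side at 3 reads. FCRLA, an Fc receptor-like protein known from B cells, had 218 reads with LSD1i and 0 with vehicle, at least 39.7-fold higher. PI16, a secreted peptidase inhibitor, had 227 reads with LSD1i and 0 with vehicle, at least 41.4-fold higher. These genes were close to silent in vehicle-treated cells and were expressed at a modest level after 72 h of LSD1i.

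RefSeq promoters (GRCh38.p14, 250 bases before to 50 after the start) are shown for GIMAP4, FCRLA and CD86, a receptor gene described next, because they held GAGGAAG, the core word bound by PU.1, on either strand, marked in capitals. They are examples picked for this word: the promoters of PI16, KCTD12 and LPAR6, also high with LSD1i, did not hold it, and that of the lower gene CDKN2A did. In GIMAP4 and CD86 capitals also mark other words searched, CACGTG (the E-box of MYC), TTGCNNAA (C/EBP) and TGTGGT (RUNX). The promoter of HES6, one of the lower genes, is shown because it held AATCNNNGC, the word of GFI1, at 2 places, which are in capitals. They lie at chr7:150567140-150567439 (+ strand), chr1:161706979-161707278 (+), chr3:122055112-122055411 (+) and chr2:238239989-238240288 (- strand).
GIMAP4: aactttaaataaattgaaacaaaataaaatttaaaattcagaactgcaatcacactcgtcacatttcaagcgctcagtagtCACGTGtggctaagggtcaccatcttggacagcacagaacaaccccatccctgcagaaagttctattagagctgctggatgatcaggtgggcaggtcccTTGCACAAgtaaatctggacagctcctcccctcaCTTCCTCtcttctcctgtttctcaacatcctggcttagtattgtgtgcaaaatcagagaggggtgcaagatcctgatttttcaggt
FCRLA: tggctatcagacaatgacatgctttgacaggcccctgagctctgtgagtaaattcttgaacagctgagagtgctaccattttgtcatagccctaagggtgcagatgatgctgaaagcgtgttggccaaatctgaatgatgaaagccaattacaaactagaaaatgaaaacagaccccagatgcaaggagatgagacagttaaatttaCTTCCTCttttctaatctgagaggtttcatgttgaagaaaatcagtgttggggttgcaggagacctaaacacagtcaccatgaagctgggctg
CD86: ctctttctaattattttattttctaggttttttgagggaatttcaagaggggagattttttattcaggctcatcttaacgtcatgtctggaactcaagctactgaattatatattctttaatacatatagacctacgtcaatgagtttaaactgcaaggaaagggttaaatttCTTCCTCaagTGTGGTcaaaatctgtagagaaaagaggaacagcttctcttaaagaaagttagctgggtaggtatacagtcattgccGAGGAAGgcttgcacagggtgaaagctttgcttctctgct
HES6: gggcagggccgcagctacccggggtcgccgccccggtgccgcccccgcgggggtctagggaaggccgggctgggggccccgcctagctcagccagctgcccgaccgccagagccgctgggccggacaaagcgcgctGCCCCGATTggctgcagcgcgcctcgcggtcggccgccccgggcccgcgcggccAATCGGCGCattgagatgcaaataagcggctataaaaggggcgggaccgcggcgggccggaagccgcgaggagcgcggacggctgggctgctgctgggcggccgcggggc

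The words were found in promoters of genes of every kind. GAGGAAG stood in 16.7% of 258 promoters of higher genes, 7.5% of 80 of lower genes, 14.7% of 8485 of genes compared and 13.4% of all 27305 in the table. For AATCNNNGC the shares were 15.1% of higher, 13.8% of lower, 12.1% of compared and 11.2% of all promoters. TGTGGT stood in 8.91% of higher, 7.5% of lower and 9.19% of compared promoters, CACGTG in 6.98%, 10% and 10.7%, and TTGCNNAA in 10.1%, 6.25% and 6.75%. A word in a promoter is a match of letters and not a measured binding site, and no binding was measured in these libraries.

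Receptors of monocytes and macrophages were among the strongest differences. CD86, which co-stimulates T cells, stood at 14.5 CPM with LSD1i and 0.708 CPM with vehicle, a ratio of 20.4 (interval 12.5 to 35.9). TLR1, which pairs with TLR2 to sense bacterial lipopeptides, stood at 12.7 CPM with LSD1i and 0.531 CPM with vehicle, a ratio of 23.9 (13.6 to 46.5). The lectin receptor CLEC4A stood at 6.10 CPM with LSD1i and 0.221 CPM with vehicle (ratio 27.6, interval 11.7 to 85.6) and the inhibitory lectin CLEC12A at 13.1 CPM with LSD1i and 3.06 CPM with vehicle (ratio 4.29, 3.33 to 5.59). CSF1R, the receptor of macrophage colony-stimulating factor, stood at 8.76 CPM with LSD1i and 3.85 CPM with vehicle, a ratio of 2.28 (1.80 to 2.91). FCGR2B, an inhibitory Fc receptor, stood at 5.79 CPM with LSD1i and 0.487 CPM with vehicle (ratio 11.9), but its reads are hard to assign because close copies of it exist.

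This was a gain of some monocyte receptors and not of most. Of 64 in the list 30 were at a level that allowed comparison. Of these 9 were higher, 1 was lower and 20 were neither, beside 3.4% higher and 1.06% lower over all genes compared. The median log2 ratio was 0.16, against 0.04 over all genes compared. CD14, the lipopolysaccharide co-receptor of mature monocytes, had 1 read with LSD1i and 2 with vehicle. The integrin chain ITGAM (CD11b) had 50 reads (1.21 CPM) with LSD1i and 7 (0.310 CPM) with vehicle, a ratio of 3.91 (1.76 to 10.2), but averaged less than 2 CPM and was not among the genes compared. CSF3R, the receptor of granulocyte colony-stimulating factor, stood at 379 CPM with LSD1i and 536 CPM with vehicle. TREM1 and MRC1 were near or at 0 reads on both sides.

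Secreted and granule proteins of myeloid cells split between directions. LYZ (lysozyme), a secreted antibacterial enzyme of monocytes and granulocytes, stood at 413 CPM with LSD1i and 37.9 CPM with vehicle, a ratio of 10.9 (10.2 to 11.7). The lysosomal protease CTSS (cathepsin S) stood at 113 CPM with LSD1i and 47.3 CPM with vehicle (ratio 2.39, 2.24 to 2.56). SERPINA1, the inhibitor of neutrophil elastase, was lower at 2.88 CPM with LSD1i and 8.06 CPM with vehicle (ratio 0.358, 0.281 to 0.453), and so was ALOX5AP, needed for leukotriene synthesis, at 1.89 CPM with LSD1i and 4.29 CPM with vehicle (ratio 0.440). Of 54 granule and secreted proteins 30 were compared, 2 higher and 3 lower, beside 3.4% higher and 1.06% lower over all genes compared. Their median log2 ratio of -0.21 was 0.06 once the GC trend was removed.

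Several genes of the GIMAP and MS4A clusters, small families of neighbouring genes on chromosomes 7 and 11, were high. Of 14 members 8 were compared and 4 were higher, beside 3.4% of all genes compared, with a median log2 ratio of 1.29. The other 6 averaged less than 2 CPM. GIMAP4 and MS4A14 stood below 2 CPM with vehicle and passed the filter only through the LSD1i library. The LSD1i 72 h library was the highest of the 4 KASUMI-1 libraries in 8 of 8, against 30.5% of all genes compared. MS4A4A, a membrane protein of macrophages, stood at 49.2 CPM with LSD1i and 3.85 CPM with vehicle (ratio 12.8, interval 10.3 to 16.02), MS4A14 at 7.72 CPM with LSD1i and 1.24 CPM with vehicle (ratio 6.23) and MS4A7 at 41.4 CPM with LSD1i and 13.6 CPM with vehicle (ratio 3.05). These 3 lie together at chr11:59804650-59941805 (NCBI36). The list was drawn up with earlier results of these data known, the value of GIMAP4 among them. Its counts and median are a description and give no independent support.

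Other higher genes also lay near each other, in runs where each gene was within 200000 bases of the next. They were RB1, LPAR6 and RCBTB2 (chr13:47775884-48005317, NCBI36), CD84, CD48 and LY9 (chr1:158782419-159064669), HSPA6, FCGR2B and FCRLA (chr1:159760660-159950765), and EVI2B, EVI2A and RAB11FIP4 (chr17:26654917-26889356). Lower genes formed such runs too: TNNT1, DNAAF3 and HSPBP1 (chr19:60336008-60483291), and DYNC2I2, PKN3 and ENDOG (chr9:130435761-130624776). How often genes picked at random would form such runs was not tested. LPAR6, a lysophosphatidic acid receptor whose gene lies inside an intron of RB1, stood at 74.8 CPM with LSD1i and 5.05 CPM with vehicle, a ratio of 14.8 (12.3 to 18.03). The tumor suppressor RB1, which holds E2F factors in check, stood at 110.3 CPM with LSD1i and 46.3 CPM with vehicle (ratio 2.38, 2.23 to 2.55), and RCBTB2 at 99.8 CPM with LSD1i and 22.9 CPM with vehicle, a log2 ratio of 2.12. The signalling lymphocyte receptors CD84, CD48 and LY9 had log2 ratios of 1.78, 1.64 and 1.89. EVI2B, a membrane protein of myeloid progenitors, stood at 126 CPM with LSD1i and 28.5 CPM with vehicle (ratio 4.42, 4.08 to 4.81).

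Genes outside the myeloid lists were among the highest ratios too. KCTD12, an auxiliary subunit of GABA-B receptors, stood at 73.8 CPM with LSD1i and 4.34 CPM with vehicle, a ratio of 17.01 (13.9 to 21.01). CAMSAP2, which binds the minus ends of microtubules, had 298 reads with LSD1i and 3 with vehicle (ratio 54.3, 18.4 to 265), and IGSF3, an immunoglobulin superfamily membrane protein, stood at 7.07 CPM with LSD1i and 0.398 CPM with vehicle (ratio 17.7). NLRP1, an inflammasome sensor, stood at 6.17 CPM with LSD1i and 0.354 CPM with vehicle (ratio 17.4, 8.71 to 40.8). ETV1, an ETS transcription factor under ERK control, stood at 4.70 CPM with LSD1i and 0.221 CPM with vehicle (ratio 21.2, 8.94 to 66.1). In CPM, a scale that favours long and abundant transcripts, the adhesion receptor CD44 had the largest gain of the genes called higher, at 1182 CPM with LSD1i and 532 CPM with vehicle (ratio 2.22, 2.18 to 2.26), and it was followed by LYZ.

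LSD1 and the partners compared were within 2-fold of vehicle, with 1 exception. KDM1A itself stood at 222 CPM with LSD1i and 262 CPM with vehicle (ratio 0.849, interval 0.821 to 0.877), a check of little weight because the drug acts on the protein. GFI1B stood at 3.44 CPM with LSD1i and 0.664 CPM with vehicle, a ratio of 5.18 (3.03 to 9.49). It was the only higher gene of 19 partners compared, beside 3.4% of all genes compared. GFI1 stood at 410 CPM with LSD1i and 247 CPM with vehicle (ratio 1.66, 1.61 to 1.71), short of 2-fold. RCOR3 stood at 60.6 CPM with LSD1i and 34.8 CPM with vehicle (ratio 1.74), and the other corepressor genes compared lay between log2 ratios of -0.54 and 0.60.

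Transcription factors of myeloid maturation did not move together. CEBPE, a factor of late granulocyte maturation, was lower at 27.7 CPM with LSD1i and 57.0 CPM with vehicle (ratio 0.487, 0.449 to 0.528), and CEBPD was lower at 5.71 CPM with LSD1i and 13.9 CPM with vehicle (ratio 0.412, 0.347 to 0.490). SPI1, which encodes PU.1, stood at 58.9 CPM with LSD1i and 81.7 CPM with vehicle (ratio 0.721), and CEBPA at 13.03 CPM with LSD1i and 11.5 CPM with vehicle (ratio 1.14, interval 0.978 to 1.32). The interferon factor IRF8 stood at 6.80 CPM with LSD1i and 4.69 CPM with vehicle (ratio 1.45). TFEC, a relative of the lysosomal regulator TFEB, was higher at 54.2 CPM with LSD1i and 22.4 CPM with vehicle (ratio 2.42). After the GC trend was removed CEBPE, CEBPD and TFEC stood at log2 ratios of -0.69, -0.79 and 0.91, none of them 2-fold apart, and SPI1 stood at 0.02, no longer below vehicle.

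Most stem and progenitor genes stood somewhat higher with LSD1i, short of 2-fold. Of 18 compared 0 were higher and 0 lower, beside 3.4% higher and 1.06% lower over all genes compared. Their median log2 ratio was 0.33. The LSD1i 72 h library was the highest of the 4 KASUMI-1 libraries in 12 and the lowest in 0. Over all genes compared it was the highest in 30.5% and the lowest in 25.1%. Set against vehicle at 6 h the list's median was 0.54 for LSD1i at 72 h and 0.35 for vehicle at 72 h. Within the 6 h pair it was -0.02. SOX4 stood at 221 CPM with LSD1i and 125 CPM with vehicle (ratio 1.77), ERG at 189 CPM with LSD1i and 113 CPM with vehicle (ratio 1.67) and the Polycomb gene BMI1 at 94.5 CPM with LSD1i and 57.5 CPM with vehicle (ratio 1.64). CD34, the surface marker of progenitors, had a ratio of 1.56 (1.53 to 1.59) at the levels given above. KIT, the receptor of stem cell factor, had a ratio of 0.825 (0.808 to 0.841) and MPO, the peroxidase of primary granules, 0.873.

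**Figure D2:**
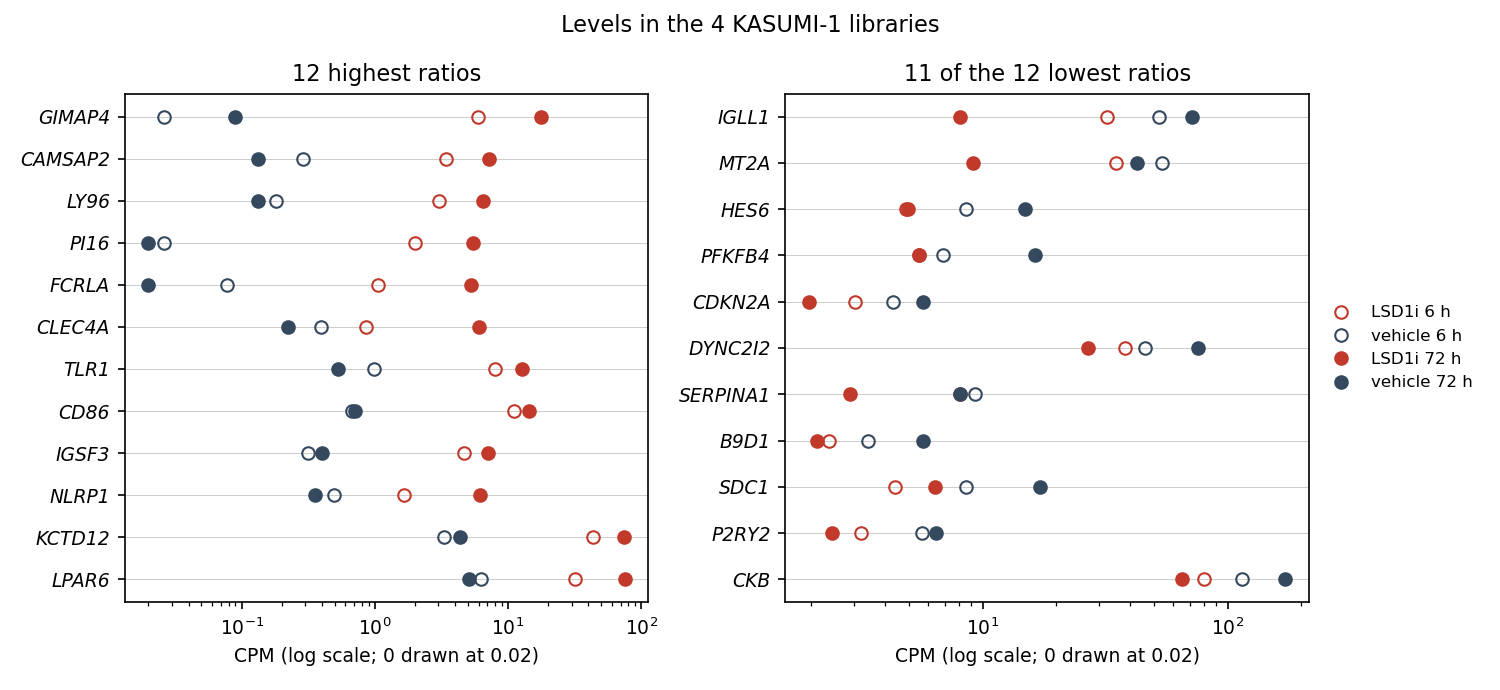
Level (CPM, log scale) in each of the 4 KASUMI-1 libraries for the 12 highest and 11 of the 12 lowest ratios at 72 h that meet the naming rule, with open circles for 6 h, filled circles for 72 h, red for LSD1i and dark blue for vehicle. On the left both LSD1i libraries lie above both vehicle libraries for every gene, and on the right the vehicle 72 h library is the highest of the 4 for most genes.

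Proliferation genes were lower as groups although few passed 2-fold. Of 49 S phase and DNA replication genes 0 were higher and 1 was lower, but 45 had an interval below 1, and their median log2 ratio was -0.49. Of 50 genes of G2 and mitosis 0 were higher and 1 was lower, 40 had an interval below 1, and the median was -0.35. Over all genes compared 1.06% were lower, and 3651 of 11051 had an interval below 1. The replicative helicase subunits MCM7 and MCM2 stood at 259 and 141 CPM with LSD1i, against 478 and 251 CPM with vehicle, ratios of 0.542 and 0.563. POLD1, the catalytic subunit of DNA polymerase delta, was the S phase gene called lower, at 41.2 CPM with LSD1i and 86.4 CPM with vehicle (ratio 0.477, 0.447 to 0.509). MYBL2, a transcription factor of the cell cycle, was lower at 141 CPM with LSD1i and 317 CPM with vehicle (ratio 0.445, 0.430 to 0.460), the mitotic activator CDC20 stood at 67.4 CPM with LSD1i and 117 CPM with vehicle (ratio 0.578) and the proliferation antigen MKI67 at 291 CPM with LSD1i and 370 CPM with vehicle (ratio 0.785).

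These groups were low in the LSD1i 72 h library against all 3 other KASUMI-1 libraries. That library was the lowest of the 4 in 43 of 49 S phase genes and in 44 of 50 genes of G2 and mitosis, against 2771 of 11051 genes compared (25.1%). Set against vehicle at 6 h the medians were -0.50 for both groups, and after the GC trend was removed they were -0.49 for S phase and -0.43 for G2 and mitosis. POLD1 and MYBL2 then stood at log2 ratios of -0.58 and -0.87, so that neither group held a 2-fold lower gene. The level of such genes per cell and the share of cells in cycle cannot be told apart in a bulk library, and the same holds for each gene of a cell subset. Inhibitors of the cycle gave no single picture. CDKN1A (p21) was lower at 1.99 CPM with LSD1i and 4.29 CPM with vehicle (ratio 0.462, 0.340 to 0.627). CDKN2A, whose gene count does not separate its transcripts, was lower at 1.96 CPM with LSD1i and 5.71 CPM with vehicle (ratio 0.343). CDKN1B (p27) stood at 124 CPM with LSD1i and 83.3 CPM with vehicle (ratio 1.49), and BTG1, an antiproliferative gene, was higher at 42.9 CPM with LSD1i and 19.9 CPM with vehicle (ratio 2.15).

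Genes for making ribosomes and for making the ribosome's own proteins went apart. Of 63 ribosome biogenesis and MYC target genes 50 had an interval below 1, against 3651 of 11051 genes compared, with a median log2 ratio of -0.33. The LSD1i 72 h library was the lowest of the 4 in 48, against 25.1% of all genes compared. RRP9, which processes ribosomal RNA, stood at 32.5 CPM with LSD1i and 60.4 CPM with vehicle (ratio 0.539), and MRTO4, an assembly factor of the large subunit, at 122 CPM with LSD1i and 203 CPM with vehicle (ratio 0.598). MYC itself stood at 385 CPM with LSD1i and 503 CPM with vehicle (ratio 0.765, 0.747 to 0.784), while its level was 262 CPM with LSD1i and 359 CPM with vehicle at 6 h. Of 61 cytosolic ribosomal protein genes 49 had an interval above 1, against 4259 of 11051 genes compared, with a median of 0.26. Set against vehicle at 6 h that median was 0.08 for LSD1i at 72 h and -0.15 for vehicle at 72 h, and within the 6 h pair it was -0.31. RPS12 stood at 4736 CPM with LSD1i and 3352 CPM with vehicle (ratio 1.41). Neither group held a gene called higher or lower. Reads that also map to processed pseudogenes of ribosomal proteins may be missing from these counts, because the recorded counting command sets no option for reads with several places.

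**Figure D3:**
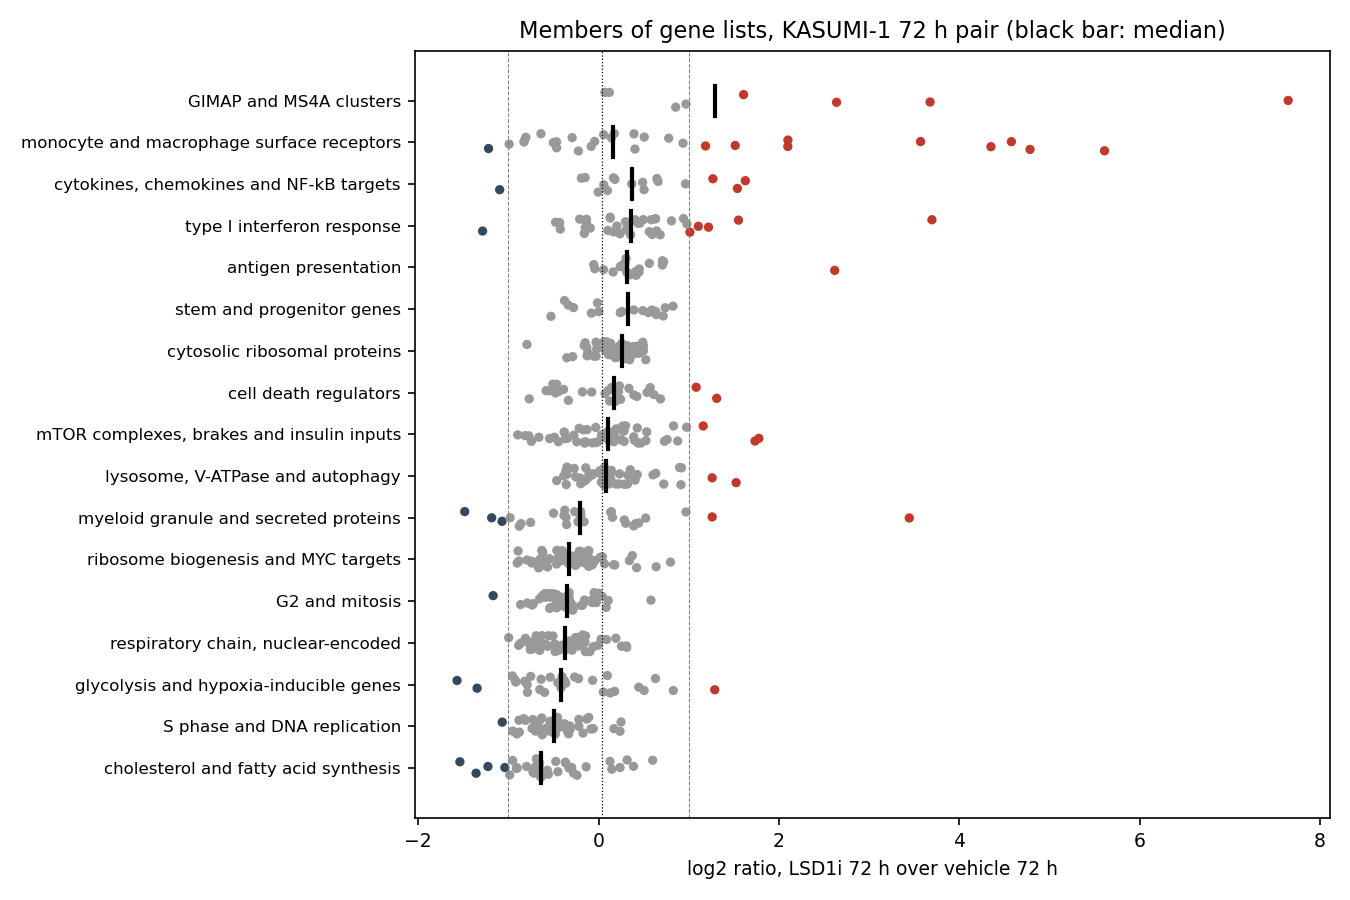
Log2 ratio of LSD1i over vehicle at 72 h (horizontal axis) for each member compared of 17 gene lists, red where 2-fold higher and blue where 2-fold lower, with a black bar at each list's median, a dotted line at the median of all genes and dashed lines at 2-fold. The replication, mitosis, respiratory chain and sterol lists lie mostly left of the dotted line with few members past 2-fold, while the receptor lists centre near it with a long right tail.

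Enzymes of cholesterol and fatty acid synthesis had the lowest median of the lists with at least 10 members compared, -0.64 on the log2 scale. Of 38 compared 0 were higher and 4 were lower, beside 3.4% higher and 1.06% lower over all genes compared. An interval below 1 was found for 31, against 3651 of 11051 genes compared. MVD, which makes isopentenyl diphosphate, stood at 16.7 CPM with LSD1i and 42.8 CPM with vehicle (ratio 0.390, 0.353 to 0.431), the desaturase FADS2 at 129 CPM with LSD1i and 301 CPM with vehicle (ratio 0.427) and HMGCS1, the synthase of the mevalonate pathway, at 96.3 CPM with LSD1i and 198 CPM with vehicle (ratio 0.487). After the GC trend was removed 2 of the 4 were still 2-fold lower, while MVD and FADS2 stood at log2 ratios of -0.87 and -0.93, and the median was -0.52. SREBF2, which drives this pathway, stood at 129 CPM with LSD1i and 213 CPM with vehicle. ABCG1, a cholesterol exporter under control of liver X receptors, was higher at 7.65 CPM with LSD1i and 1.15 CPM with vehicle (ratio 6.65, 4.45 to 10.3).

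The sterol difference lay mostly on the vehicle side. At 6 h FADS2 stood at 129 CPM with LSD1i and 133 CPM with vehicle, so its LSD1i 72 h value was near those of 6 h and its vehicle 72 h value stood far above them. The vehicle 72 h library was the highest of the 4 in 30 of 38 genes, against 3178 of 11051 genes compared. The LSD1i 72 h library was the lowest in 19 of 38, against 25.1% of all genes compared, so a part lay on the LSD1i side too. Set against vehicle at 6 h, the list's median was -0.08 for LSD1i at 72 h and 0.53 for vehicle at 72 h. The same held for glycolysis and hypoxia-inducible genes, with a median of -0.41 within the 72 h pair, -0.06 for LSD1i at 72 h against vehicle at 6 h and 0.20 for vehicle at 72 h against vehicle at 6 h. PFKFB4, a regulator of glycolytic flux, stood at 5.52 CPM with LSD1i and 16.4 CPM with vehicle at 72 h, and at 5.53 CPM with LSD1i and 6.91 CPM with vehicle at 6 h. The cause was not tested.

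**Figure D4:**
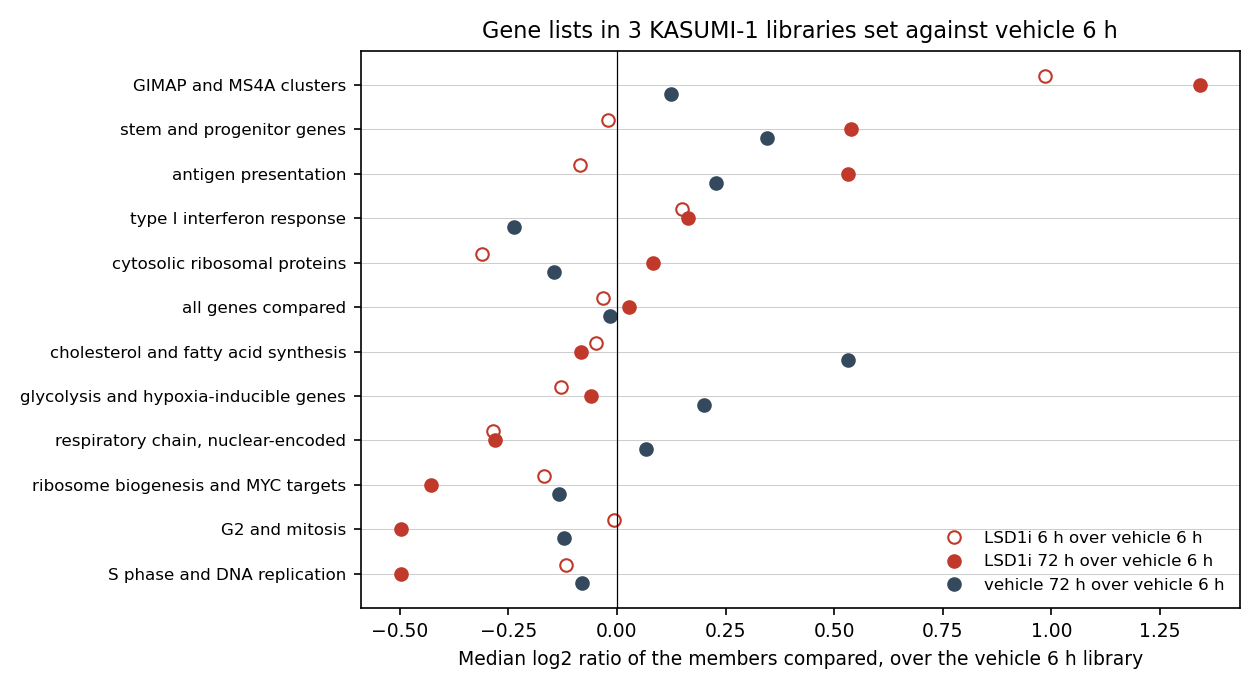
Median log2 ratio of the members compared (horizontal axis) for 12 gene groups in the LSD1i 6 h (open red), LSD1i 72 h (filled red) and vehicle 72 h (dark blue) libraries, each set against the vehicle 6 h library. For replication, mitosis and ribosome biogenesis the LSD1i 72 h library stands apart on the left, and for sterol synthesis the vehicle 72 h library stands apart on the right.

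The design text ties the sampling times to regulation of mTOR, the kinase that couples growth to nutrients. Of 59 genes of mTOR complexes, their brakes and insulin inputs 3 were higher and 0 were lower, with a median log2 ratio of 0.10, a share of higher genes near the 3.4% of all genes compared. Of the 59 genes 25 had an interval above 1 and 20 had one below it, against 4259 and 3651 of 11051 genes compared. The lowest ratio in the list was that of RPS6KB2, at 46.4 CPM with LSD1i and 86.3 CPM with vehicle (ratio 0.537, 0.504 to 0.573). The 3 higher genes encode proteins known to restrain the pathway, a number too small to be read as a result on the pathway. DDIT4 (REDD1), a stress-induced brake on mTOR, stood at 58.6 CPM with LSD1i and 17.1 CPM with vehicle, a ratio of 3.43 (3.08 to 3.83). PIK3IP1, an inhibitor of PI3K, stood at 61.0 CPM with LSD1i and 18.3 CPM with vehicle (ratio 3.33, 2.999 to 3.70), and SESN1, a sestrin that restrains mTOR signalling, at 43.1 CPM with LSD1i and 19.3 CPM with vehicle (ratio 2.23, 2.01 to 2.49). SESN2, another sestrin, stood at 12.4 CPM with LSD1i and 11.03 CPM with vehicle (ratio 1.12, interval 0.964 to 1.31). The insulin receptor substrate IRS1 had 8 reads with LSD1i and 2 with vehicle, and IRS2 stood at 3.75 CPM with LSD1i and 3.32 CPM with vehicle (ratio 1.13). At 6 h DDIT4 stood at 41.0 CPM with LSD1i and 30.5 CPM with vehicle, so its vehicle level was lower at 72 h than at 6 h.

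Amino acid carriers and ATF4 targets had a median of -0.22, with 2 of 44 higher and 0 lower, near the 3.4% of all genes compared. SLC7A7, a carrier of basic amino acids, was higher at 8.30 CPM with LSD1i and 1.20 CPM with vehicle (ratio 6.95), while SLC7A5, a leucine carrier, stood at 41.4 CPM with LSD1i and 81.3 CPM with vehicle (ratio 0.509) and SLC1A5, a glutamine carrier, at 65.3 CPM with LSD1i and 109 CPM with vehicle (ratio 0.601). Lysosome and autophagy genes had a median of 0.09, with 2 of 51 higher, again near that share. WIPI1, which acts at forming autophagosomes, stood at 13.5 CPM with LSD1i and 4.69 CPM with vehicle (ratio 2.88), but its exons overlap ARSG and the counting did not use strand. Nuclear-encoded respiratory chain genes had a median of -0.37, and at 6 h their median was -0.29. At 72 h 46 of 54 had an interval below 1, against 3651 of 11051 genes compared.

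Interferon response and antigen presentation genes leaned to higher levels. Of 39 interferon response genes 5 were higher and 1 was lower, beside 3.4% higher and 1.06% lower over all genes compared. Their median log2 ratio was 0.36. Set against vehicle at 6 h the median was 0.16 for LSD1i at 72 h and -0.24 for vehicle at 72 h. The vehicle 72 h library was the lowest of the 4 in 20 of 39, against 31.7% of all genes compared. GBP2, a guanylate-binding protein induced by interferon, stood at 20.1 CPM with LSD1i and 1.55 CPM with vehicle (ratio 12.97, 9.25 to 18.7). IRF1, an interferon-induced transcription factor, stood at 71.3 CPM with LSD1i and 24.3 CPM with vehicle (ratio 2.93, 2.67 to 3.22), SAMD9 at 14.8 CPM with LSD1i and 6.38 CPM with vehicle (ratio 2.33) and the RNA sensor RIGI at 10.7 CPM with LSD1i and 5.31 CPM with vehicle (ratio 2.02). After the GC trend was removed 3 of the list were higher. GBP2 and IRF1 were among them, at log2 ratios of 3.67 and 1.69, and the other was not called without that step. SAMD9, RIGI and RSAD2, all called higher without it, then stood at 0.85, 0.75 and 0.94. OASL was lower at 2.25 CPM with LSD1i and 5.49 CPM with vehicle (ratio 0.410). MX1, a classic interferon target, was near 0 on both sides at 0.0968 CPM with LSD1i and 0.221 CPM with vehicle. Of 21 antigen presentation genes 1 was higher, near the 3.4% of all genes compared. It was HLA-DOA, whose name spans several haplotype sequences. Of the 21 genes 17 had an interval above 1, against 4259 of 11051 genes compared, and 0 had one below it. HLA-DRA, a class II chain, stood at 241 CPM with LSD1i and 147 CPM with vehicle (ratio 1.63), and the LSD1i 72 h library was the highest of the 4 KASUMI-1 libraries in 19 of 21, against 30.5% of all genes compared.

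Among death regulators, 2 of 30 compared were higher and 0 lower, with a median of 0.17, beside 3.4% higher over all genes compared, a difference too small in number to be read as a result on this list. TNFRSF10B, a receptor of the death ligand TRAIL, stood at 66.5 CPM with LSD1i and 26.8 CPM with vehicle (ratio 2.48, 2.27 to 2.71), with exons that overlap RHOBTB2. BMF, a BH3-only protein that opposes BCL2, stood at 23.4 CPM with LSD1i and 11.1 CPM with vehicle (ratio 2.12, 1.84 to 2.44). Of the 30 members 15 had an interval above 1 and 11 had one below it, against 4259 and 3651 of 11051 genes compared. Short of 2-fold, BAD and BAK1 had ratios of 0.587 (0.539 to 0.639) and 0.668 (0.611 to 0.731), and BIRC2 had 1.61. Outside this list, TNFSF10, which encodes TRAIL, was higher at 11.6 CPM with LSD1i and 4.83 CPM with vehicle (ratio 2.41). TP53INP1, a target of p53 in cell death and arrest, also outside it, was higher at 83.3 CPM with LSD1i and 17.1 CPM with vehicle (ratio 4.86). BCL2 stood at 46.3 CPM with LSD1i and 44.0 CPM with vehicle.

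The lowest ratios belonged to a small and mixed set of genes. IGLL1, a surrogate light chain of B cell precursors, stood at 8.06 CPM with LSD1i and 71.9 CPM with vehicle, a ratio of 0.112 (0.0994 to 0.126). MT2A, a metal-binding metallothionein, stood at 9.18 CPM with LSD1i and 42.6 CPM with vehicle (ratio 0.216, 0.191 to 0.243). Both belong to families of near copies, so that their counts are uncertain. HES6, a bHLH cofactor, stood at 4.96 CPM with LSD1i and 14.97 CPM with vehicle (ratio 0.332, 0.277 to 0.396), SDC1 (syndecan) at 6.39 CPM with LSD1i and 17.2 CPM with vehicle (ratio 0.371) and the brain creatine kinase CKB at 65.4 CPM with LSD1i and 172 CPM with vehicle (ratio 0.381). IGLL1 and MT2A also stood below both 6 h libraries, with 32.3 CPM with LSD1i and 52.5 CPM with vehicle at 6 h for IGLL1, and 35.0 CPM with LSD1i and 53.9 CPM with vehicle for MT2A.

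A trend with base composition ran through the pair and bears most on the lower genes. Genes were split into 5 equal groups by the GC content of their longest protein-coding GENCODE v29 transcript, for 10265 genes (92.9% of those compared). The median log2 ratio was 0.32 in the GC-poorest group and -0.32 in the GC-richest. Of the lower genes 80 lay in the GC-richest group and 2 in the poorest, while of the higher genes 22 lay in the richest and 125 in the poorest. Against vehicle at 6 h the vehicle 72 h library had medians of -0.24 and 0.31 in these groups. Those of LSD1i at 72 h against vehicle at 6 h were 0.085 and -0.003. A weaker trend of the same direction stood within the KASUMI-1 6 h pair, which lacks the vehicle 72 h library, with medians of 0.16 and -0.16. The medians were 0.085 and -0.18 in the THP-1 72 h pair, and -0.08 and 0.04 in the THP-1 24 h pair. The cause of the trend was not tested. With each gene centred on genes of its GC content 303 were higher and 46 lower, of which 241 and 32 were also called without that step. Of the other genes named above as higher or lower, CTSS, RB1, BTG1, CDKN1A and CKB were then short of 2-fold, at log2 ratios of 0.99, 0.98, 0.83, -0.91 and -0.91. Centring was chosen after seeing the data. A trend with length was weaker, with medians of -0.20 for the shortest and 0.21 for the longest of 5 groups.

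**Figure D5:**
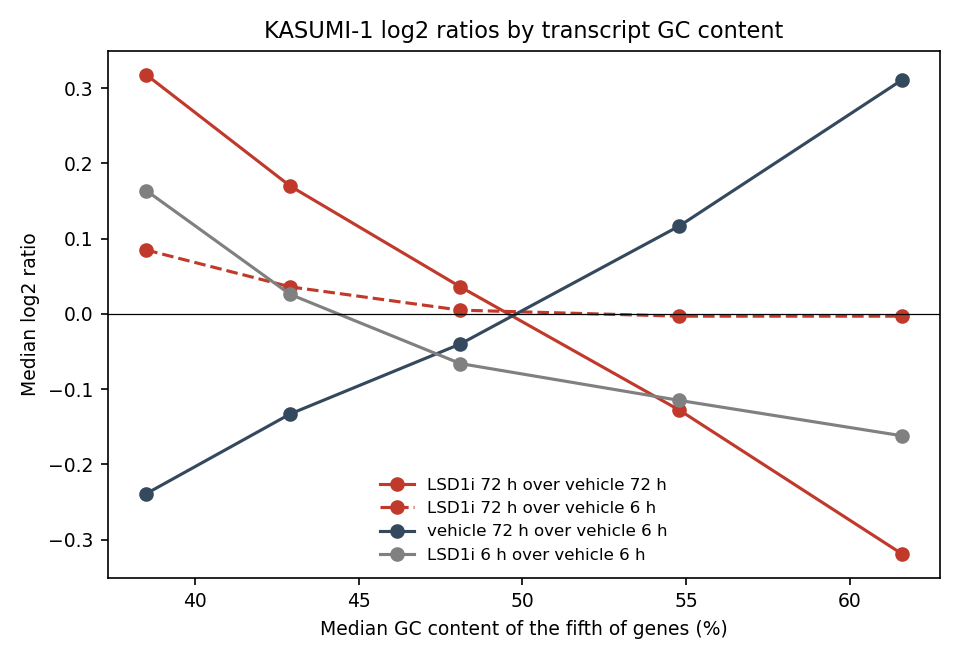
Median log2 ratio (vertical axis) in 5 equal groups of genes by GC content of the transcript (horizontal axis, percent) for 4 comparisons of KASUMI-1 libraries. The 72 h pair runs down with GC content, between medians of 0.32 and -0.32. The 6 h pair also runs down, less steeply, between medians of 0.16 and -0.16. Vehicle 72 h over vehicle 6 h runs the opposite way, and LSD1i 72 h over vehicle 6 h is nearly flat.

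Because the vehicle 72 h library is 1 shallow library, the other vehicle library of the line was also used as the control. Against vehicle at 6 h 229 of the 376 higher genes (60.9%) were 2-fold higher too, a comparison that shares the LSD1i library. Of the 117 lower genes 28 (23.9%) were lower there too, and 10 were not lower at all. The level in the LSD1i 72 h library lay above those of all 3 other KASUMI-1 libraries in 319 of the higher genes and below them in 84 of the lower genes. Over all genes compared it was the highest in 30.5% and the lowest in 25.1%. The order against vehicle at 72 h was fixed by how these genes were chosen, so only the 6 h libraries add information. As a measure of how far vehicle libraries lie apart, 1.56% of 10906 genes differed 2-fold between vehicle at 72 h and vehicle at 6 h, 0.862% higher and 0.697% lower at 72 h.

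Most of the early response was still present at 72 h and the late response was wider. At 6 h 90 genes (0.823% of 10942) were higher with LSD1i and 4 (0.0366%) were lower. Of those 90 genes 84.4% were higher at 72 h as well, which is 20.2% of the genes higher at 72 h. For GIMAP4 the 6 h libraries held 5.96 CPM with LSD1i and 0.0261 CPM with vehicle, for TLR1 7.96 CPM with LSD1i and 0.992 CPM with vehicle, and for CD86 11.03 CPM with LSD1i and 0.678 CPM with vehicle. ABCG1 stood at 1.72 CPM with LSD1i and 1.83 CPM with vehicle at 6 h, and DUSP10, a phosphatase of stress kinases, at 3.20 CPM with LSD1i and 2.90 CPM with vehicle, so both were near equal within the 6 h pair. At 72 h DUSP10 stood at 4.38 CPM with LSD1i and 0.974 CPM with vehicle, a vehicle level below that of 6 h. Of the 117 lower genes 1 was also lower at 6 h.

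In THP-1 315 genes (2.8% of 11250) were higher and 50 (0.444%) lower with LSD1i at 24 h, and 372 (3.27% of 11387) higher and 162 (1.42%) lower at 72 h. Of the 376 genes higher in KASUMI-1 at 72 h 17% were higher in THP-1 at 24 h and 22.6% at 72 h, which is 20.3% and 22.8% of the genes higher in those pairs. Of the 117 lower genes 1 and 4 were lower in THP-1 at these times. Several of the strongest genes stood high there too: at 72 h in THP-1 the log2 ratios of GIMAP4, CD86, LY96 and LYZ were 8.61, 6.17, 7.82 and 4.39. CAMSAP2 had log2 ratios of -0.23 at 24 h and -0.23 at 72 h in THP-1, against 5.76 in KASUMI-1 at 72 h. KIT stood at a log2 ratio of -3.03 in THP-1 at 72 h and -0.28 in KASUMI-1. With 1 library a side the difference between lines was not tested for any gene.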

How the data were processed

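Gene-level read counts of 8 RNA sequencing libraries were used, prepared with a TruSeq kit (500 ng of RNA), per the labels. The authors deposited whole-number counts without normalization, made with featureCounts 1.5.2 on Ensembl release 54 models of NCBI build 36 per the file headers, with no strand or multi-mapping option. The submitters' processing notes also name FastQC 0.10.0, TopHat2 2.0.10 and edgeR. Of 33045 names 16840 were current symbols and 3253 older ones. TMM factors came from edgeR 4.0.16 in R 4.3.3 and RLE factors from DESeq2 1.42.0. Ratios had no prior count, with a floor of 3 reads for a side at 0. Exact conditional binomial intervals (95%) came from scipy 1.17.1, and the steps were tested on simulated data. Members, gene lists and the naming rule (a core set, the 12 highest and 12 lowest ratios at 5 CPM or more, the 8 largest gains and losses, up to 6 members a list, and family members) were chosen with earlier results of these data known. Genes named only as neighbours, as markers or for opposite directions between lines were added after their values were seen. Some genes that the rule names are not reported here.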

Additional observations from a re-analysis of the deposited data

Results flagged for a closer look

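Of the genes called at 72 h in KASUMI-1, 4 were 2-fold apart the other way in THP-1 at 72 h, each from 1 library a side, so the difference between the lines was not tested. PPP1R16B, a regulatory subunit of a protein phosphatase, stood at 15.7 CPM with LSD1i and 1.77 CPM with vehicle in KASUMI-1 and at 2.19 CPM with LSD1i and 4.74 CPM with vehicle in THP-1, where its log2 ratio was -1.118. TP53INP2, which acts in autophagy, stood at 6.56 CPM with LSD1i and 2.21 CPM with vehicle in KASUMI-1 and at 2.55 CPM with LSD1i and 6.16 CPM with vehicle in THP-1 (log2 ratio -1.269). AFF2, a nuclear protein of the AF4 family, stood at 50.2 CPM with LSD1i and 22.1 CPM with vehicle in KASUMI-1 and at 6.93 CPM with LSD1i and 16.9 CPM with vehicle in THP-1 (log2 ratio -1.284). CD180, a Toll-like receptor homologue, was lower in KASUMI-1 at 5.25 CPM with LSD1i and 12.8 CPM with vehicle and higher in THP-1 at 11.7 CPM with LSD1i and 4.91 CPM with vehicle (log2 ratio 1.252).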

How the results depend on the processing

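The counts of 376 higher and 117 lower genes were recomputed under 10 alternatives, 1 of them, centring by GC content, added after seeing the data. Within 1.5 times of both counts lay TMM over the pair alone (326 and 145), RLE factors (354 and 130), total reads only (292 and 175, with a share of higher genes of 62.5%), a prior count of 2 (370 and 113), thinning of the LSD1i library to the vehicle total (389 and 127) and vehicle at 6 h as control (436 and 118). A mean of at least 5 CPM left 242 higher and 87 lower genes, and fewer genes were then tested. Without the CPM filter, at 10 reads or more over the pair, there were 823 and 285. At 1.5-fold there were 1285 and 923, a share of 58.2%. Centring by GC content gave 303 and 46, a share of 86.8%. The median log2 ratio of all genes lay between -0.05 and 0.06 under these settings. Against vehicle at 6 h, 4 named genes called in the 72 h pair changed sign: CXCL8 stood at -1.494, ID2 at -0.463, RSAD2 at -0.206 and ETV4 at 0.339. No other named gene called in the pair did so under any of the 10 alternatives. No replicate could be left out, and no paired analysis was possible because each group held 1 library. The vehicle library's 23722972 reads set the precision: a gene with 0 reads there has a floor of 3 reads, and culture and library variation were not measured.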

Other observations

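Markers of other lineages gave single high values in this myeloid line at 72 h. TRAT1, an adaptor of T cell receptor signalling, stood at 1.82 CPM with LSD1i and 0.0443 CPM with vehicle, and GZMA, a granzyme of cytotoxic lymphocytes, at 2.06 CPM with LSD1i and 0.0443 CPM with vehicle, each from 1 vehicle read, while CD3E stood at 0.0726 CPM with LSD1i and 0.399 CPM with vehicle. TRIM22, an interferon-induced antiviral protein, stood at 1.77 CPM with LSD1i and 0.177 CPM with vehicle, and HLA-DQA1, a class II chain, at 0.75 CPM with LSD1i and 0.0886 CPM with vehicle. These averaged less than 2 CPM and so were not among the genes compared, and they were chosen after their values were seen. Among 4 replication-dependent histone genes compared, H2AC6 and H2BC12 were higher, at 8.43 and 9.27 CPM with LSD1i, against 1.20 and 3.81 CPM with vehicle. The exons of H2AC6 overlap another histone gene.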
